A study of Rattus norvegicus with 21 samples.

Results

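The comparison was between a cathepsin H clone of the rat insulinoma line INS-1 (pCTSH#1) and untransfected INS-1 cells (INS1), both without cytokines (0 h). Its members were chosen by sample title, with no use of measured values. They are the 3 arrays of pCTSH#1 at 0 h and the 3 of INS1 at 0 h, 6 of the 21 arrays of the series, read over 31042 of 31137 probe sets after 95 array controls were set aside. INS-1 is an insulin-secreting tumour line widely studied in place of pancreatic beta cells. The pCTSH#1 cells were 1 individual clone with a stably integrated plasmid that encodes cathepsin H (CTSH). A line that stably carries the empty vector (pcDNA, 3 arrays at 0 h) is given beside it, and the labels do not say whether that line is also a single clone. All 3 groups were kept in culture for several days before RNA was taken and received neither IL-1β nor IFNγ. The 4 groups exposed to both cytokines for 6 or 16 h, 2 in pCTSH#1 and 2 in pcDNA, are used only where stated.

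Cathepsin H is a lysosomal cysteine protease that trims peptides mainly from their amino end. Its gene lies in a region associated with type 1 diabetes in humans, a disease in which inflammatory cytokines contribute to the loss of beta cells. In a stable clone, the transfected gene, the selection and any property of the founding cell are all carried by the same arrays. pCTSH#1 differs from INS1 in all of these at once, so their parts in any difference cannot be told apart here. Replicates carry numbers in the labels, but nothing there tells separate cultures from repeat extracts of one, and the p-values cover only array-to-array spread, which may be technical.

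The values are log2 intensities per probe set made by the authors with RMA, and a difference is always pCTSH#1 minus INS1 on that scale unless another pair is named. Over the 9 arrays at 0 h, array medians were 4.95 to 5.08, background (the highest nonspecific control probe set of an array) was 3.88 to 4.17, and 61.4% to 71.0% of probe sets lay above it. Each array had a mean correlation of 0.994 to 0.996 with the others of its group. Of the beta-cell markers, 6 had a probe set with 1 gene symbol (Ins1, Ins2, Pdx1, Nkx6-1, Slc2a2 and Iapp), and all of these were above background in both groups and none was called. The 4 acinar, 3 duct and 2 delta-cell markers measured and the PP-cell hormone Ppy were at background in both groups. So were 3 of 4 leukocyte, 2 of 2 endothelial and 2 of 4 mesenchymal markers. Of the alpha-cell markers Gcg was expressed, while Irx2 and Ttr were at background.

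The overexpressed gene was not visible on this array. Ctsh had 4.13, 3.85 and 4.02 in pCTSH#1, 3.87, 3.99 and 3.84 in pcDNA and 3.62, 3.85 and 3.85 in INS1. These levels lay at or near background, the pCTSH#1 and INS1 arrays overlapped, and the difference was 0.23 ± 0.20 (standard error; limma adjusted p = 0.755). The labels do not name the species of the plasmid's sequence, and whether the rat probe set detects it was not tested, so this reading does not check the label. Ins1 and Ins2, the insulin genes, differed by -0.04 ± 0.06 and 0.09 ± 0.08. Rac2, a GTPase subunit of the phagocyte-type NADPH oxidase, differed by -0.11 ± 0.19 and was near background, and Nox1, a catalytic NADPH oxidase subunit, differed by 0.09 ± 0.18. Nos2, the inducible nitric oxide synthase, was at background in both groups. None of these genes was called (adjusted p from 0.675 to 0.922). In the antioxidant and NADPH oxidase list 1 of 43 measured genes was called (2.33%, against 3.45% of all genes). It was the GTPase Rac1, higher by 0.32 ± 0.07 (limma adjusted p = 0.0115). Its call was lost without pCTSH#1 replicate 1 (0.0653) or INS1 replicate 1 (0.065), and in the model of only the 6 arrays (0.178).

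The clone and the untransfected cells differed in 797 probe sets (2.57% of those tested; limma, two-sided, Benjamini-Hochberg adjusted p below 0.05). Of these 531 (1.71%) were higher and 266 (0.857%) lower in pCTSH#1. By gene, with each of 13437 genes read from its brightest probe set, 463 (3.45%) were called, 307 (2.28%) higher and 156 (1.16%) lower. Most differences were small: the median was 0.52 among genes called higher and -0.64 among those called lower, against 0.01 over all genes. Only 22 higher and 16 lower genes passed 1 (log2), and 4 higher genes and none of the lower ones passed 2. Probe sets without a single gene symbol are not in these counts. Among them, and described below, 1384501_PM_at differed by 3.24 and 1372029_PM_at by -2.72. For 461 of the 463 genes all pCTSH#1 arrays lay on one side of all INS1 arrays. These genes were called for a gap between the same arrays, so this count describes them and is no test. Over all probe sets, called or not, 8.61% lay wholly higher and 7.16% wholly lower. The call held without each of the 6 arrays in turn for 151 of the higher and 81 of the lower genes. The number of probe sets called was 366 when the model held only these 6 arrays, and those called lower numbered 177 without pCTSH#1 replicate 2.

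**Figure D1:**
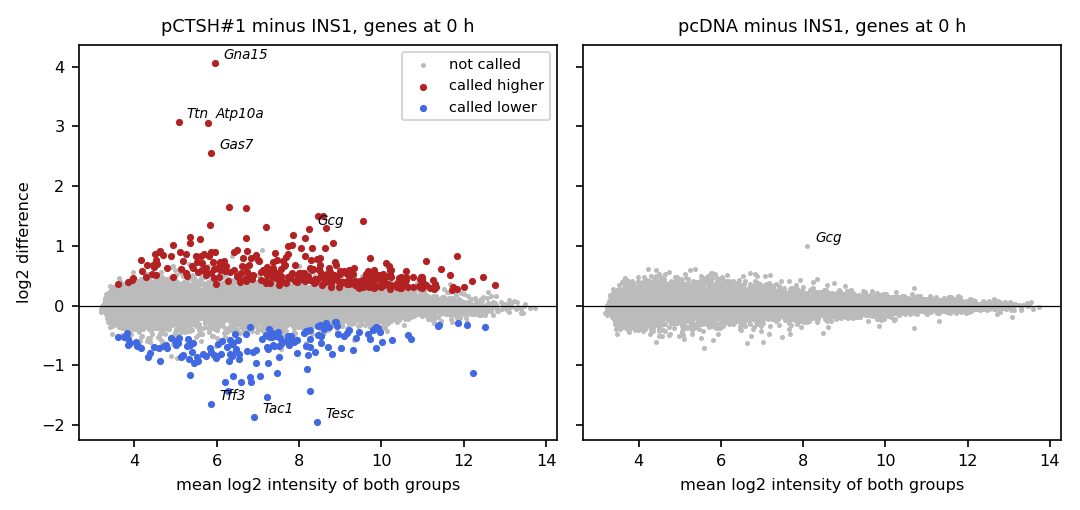
Log2 difference (vertical) against the mean log2 intensity of the 2 groups (horizontal) for 13437 genes at 0 h, pCTSH#1 minus INS1 at left and pcDNA minus INS1 at right. Red and blue points are genes called higher and lower at an adjusted p below 0.05 (307 and 156 at left, 0 and 0 at right), and Gna15, Ttn, Atp10a and Gas7 stand above 2 at left.

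The largest increase was that of Gna15 (Entrez 89788), a G protein alpha subunit of the Gq family best known from blood cells. It read 7.80, 7.94 and 8.26 in pCTSH#1, 4.06, 4.11 and 4.33 in pcDNA and 3.89, 3.99 and 3.92 in INS1. Both pcDNA and INS1 lay at the edge of background while every pCTSH#1 array was far above it. The difference was 4.06 ± 0.12, or 16.7-fold, a fold compressed by the low INS1 level (adjusted p = 4.68e-14). Atp10a (Entrez 365266), a P4-type ATPase that moves phospholipids between membrane leaflets, read 7.38, 7.42 and 7.15 in pCTSH#1, 4.56, 4.63 and 4.49 in pcDNA and 4.35, 4.34 and 4.06 in INS1. It rose by 3.06 ± 0.13 or 8.36-fold (adjusted p = 2.77e-11), and its other probe set was at background in both groups. At the other end, Tesc (Entrez 288689), which encodes the calcium-binding protein tescalcin, read 7.49, 7.41 and 7.52 in pCTSH#1, 9.43, 9.64 and 9.46 in pcDNA and 9.27, 9.38 and 9.59 in INS1. It fell by 1.94 on the log2 scale, 3.85-fold (SE 0.12, adjusted p = 4.64e-09). Tac1 (Entrez 24806), the precursor of substance P, read 5.97, 5.86 and 6.11 in pCTSH#1, 8.20, 7.98 and 7.96 in pcDNA and 7.85, 7.96 and 7.74 in INS1. It fell by 1.87, 3.66-fold (SE 0.12, adjusted p = 1.8e-08). For both genes the 3 pCTSH#1 arrays lay well below all 6 arrays of the other lines.

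The promoters of these genes, 2 that rose and 2 that fell most among those with a promoter in the RefSeq table and a measured fold, show what the start regions hold (GRCr8, 250 bases before to 50 after the annotated start, on the gene's own strand). Capitals mark matches on either strand to the box CCAAT, the Sp1-type element GGGCGG, the element CACGTG bound by basic helix-loop-helix factors, the core promoter element TATAAA, and the cyclic AMP response element TGACGTCA. Gna15 is chr7:8835374-8835673 on the plus strand, Atp10a chr1:118692228-118692527 on the plus strand, Tesc chr12:44216491-44216790 on the minus strand and Tac1 chr4:36645333-36645632 on the plus strand.
Gna15: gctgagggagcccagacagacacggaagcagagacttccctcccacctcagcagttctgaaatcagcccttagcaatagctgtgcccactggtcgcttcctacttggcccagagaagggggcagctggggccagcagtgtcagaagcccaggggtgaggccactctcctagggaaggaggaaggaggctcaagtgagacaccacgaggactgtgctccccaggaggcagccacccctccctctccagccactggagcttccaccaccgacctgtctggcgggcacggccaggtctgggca
Atp10a: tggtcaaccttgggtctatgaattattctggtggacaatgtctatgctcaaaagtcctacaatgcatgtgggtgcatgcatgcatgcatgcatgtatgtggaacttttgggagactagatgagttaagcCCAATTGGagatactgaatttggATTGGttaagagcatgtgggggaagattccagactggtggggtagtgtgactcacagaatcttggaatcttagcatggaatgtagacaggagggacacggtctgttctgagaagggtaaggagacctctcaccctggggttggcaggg
Tesc: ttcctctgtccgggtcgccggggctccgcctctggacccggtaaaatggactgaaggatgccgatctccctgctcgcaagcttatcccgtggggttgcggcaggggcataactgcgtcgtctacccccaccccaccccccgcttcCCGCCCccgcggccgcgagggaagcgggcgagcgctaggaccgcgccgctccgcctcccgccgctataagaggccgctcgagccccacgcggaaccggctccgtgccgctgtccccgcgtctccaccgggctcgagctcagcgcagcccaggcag
Tac1: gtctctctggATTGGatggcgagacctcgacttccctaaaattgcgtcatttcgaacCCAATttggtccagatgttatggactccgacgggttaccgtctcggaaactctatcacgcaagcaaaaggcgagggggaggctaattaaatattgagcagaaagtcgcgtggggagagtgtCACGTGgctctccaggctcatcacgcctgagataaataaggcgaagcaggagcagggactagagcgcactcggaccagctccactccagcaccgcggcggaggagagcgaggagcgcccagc
Over 33469 rat promoters of this length 37.5% held CCAAT, 33.1% GGGCGG, 14.2% TATAAA, 6.42% CACGTG and 1.83% TGACGTCA, and the median number of CpG dinucleotides was 7. The 2 genes that rose had 6 (Gna15) and 1 (Atp10a), and the 2 that fell had 38 (Tesc) and 22 (Tac1). Of genes described below, Ttn, which rose, had 7 and Tff3, which fell, had 9, both near the median. Gna15 held none of the 5 motifs in this window, Atp10a held CCAAT matches, of which 2 overlap as CCAATTGG, Tesc held GGGCGG, and Tac1 held CCAAT and CACGTG. The matches describe these letters only.

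Among the other genes that rose, Ttn, which encodes the muscle protein titin, read 6.64, 6.82 and 6.38 in pCTSH#1, 3.75, 3.96 and 3.62 in pcDNA and 3.52, 3.49 and 3.61 in INS1. INS1 was at background on every array, so the increase is a lower bound of at least 6.12-fold (adjusted p = 4.64e-09). Gas7, a growth-arrest gene whose product binds actin and membranes, read 7.18, 7.03 and 7.21 in pCTSH#1, 4.44, 4.78 and 4.41 in pcDNA and 4.81, 4.58 and 4.35 in INS1. It was 5.89-fold higher (2.56 ± 0.13, adjusted p = 3.76e-10), with the pcDNA arrays within the range of INS1. Islr2, a membrane protein of neurons with leucine-rich repeats, rose by 1.66 ± 0.16 to 7.13 ± 0.14 in pCTSH#1, against 5.47 ± 0.36 in INS1 (SD, n = 3 each). Runx1t1, a transcriptional corepressor, averaged 7.86 ± 0.17 in pCTSH#1 and 6.54 ± 0.22 in INS1 (SD, n = 3 each), a difference of 1.32 ± 0.15 (adjusted p = 1.56e-05). Polr3g, a subunit of RNA polymerase III, rose by 1.51 ± 0.11 and Ptpre, a receptor-type tyrosine phosphatase, by 1.18 ± 0.14.

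Enzymes were also among the genes that rose most. Aldh1a1, which makes retinoic acid from retinal, read 9.35, 9.32 and 9.23 in pCTSH#1, 7.73, 8.00 and 8.00 in pcDNA and 7.85, 8.03 and 8.14 in INS1. The arrays of pCTSH#1 were tightly grouped and clear of both other lines, and the difference was 1.30 ± 0.10 (2.46-fold, adjusted p = 7.71e-08). Naprt, the first enzyme of NAD synthesis from nicotinic acid, rose by 1.64 ± 0.17 (3.12-fold), and its second probe set was also higher (0.80, adjusted p = 0.00443). Glod5, a protein of the glyoxalase-domain family, rose by 1.50 ± 0.09. Fam151a, Otulinl and the calcium-binding gene S100a5 rose by 1.41 ± 0.11, 1.34 ± 0.16 and 1.16 ± 0.13.

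**Figure D2:**
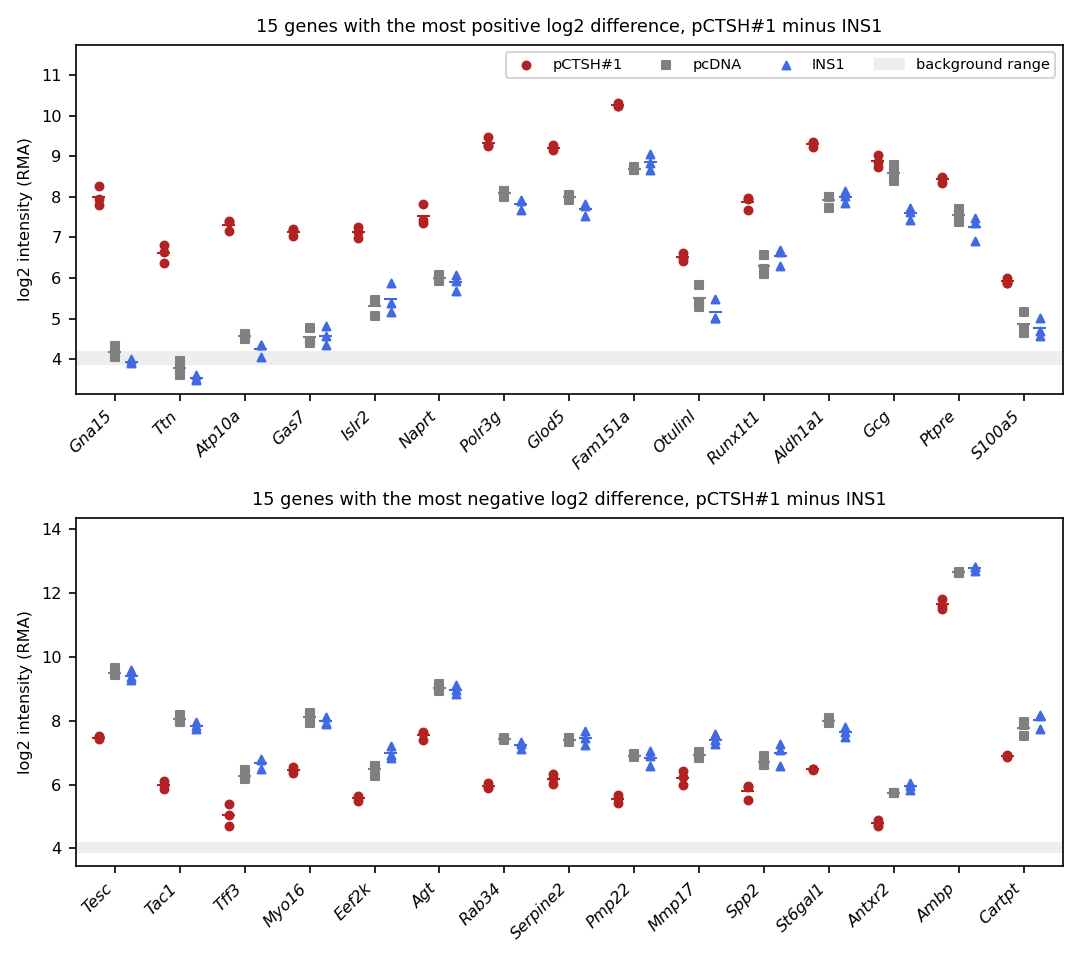
Log2 RMA intensity (vertical) on each array at 0 h for the 15 genes with the most positive (upper panel) and the 15 with the most negative (lower panel) difference between pCTSH#1 and INS1. Circles are pCTSH#1, squares pcDNA and triangles INS1, short lines are means of 3 arrays, and the grey band is the range of array backgrounds, 3.88 to 4.17; Gcg is the gene whose pcDNA points lie beside those of pCTSH#1.

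Several of the genes that fell encode secreted or membrane proteins. Agt, which encodes angiotensinogen, read 7.65, 7.41 and 7.61 in pCTSH#1, 9.16, 9.04 and 8.92 in pcDNA and 8.98, 9.12 and 8.84 in INS1. It fell by 1.42 (2.68-fold, SE 0.12, adjusted p = 7.8e-07), with no overlap between pCTSH#1 and the other lines. Tff3, a trefoil peptide of mucous epithelia, averaged 5.04 ± 0.35 in pCTSH#1 and 6.68 ± 0.18 in INS1 (SD, n = 3 each) and fell by 1.64 (SE 0.17). Serpine2, an inhibitor of thrombin and related serine proteases, fell by 1.28 (SE 0.16, adjusted p = 5.29e-05), Mmp17, a membrane-anchored matrix metalloproteinase, by 1.20 (SE 0.17), and Spp2, a secreted phosphoprotein, by 1.18 (SE 0.17). Ambp, the precursor of alpha-1-microglobulin and bikunin, was among the brightest genes and averaged 11.7 ± 0.15 in pCTSH#1 and 12.8 ± 0.07 in INS1 (SD, n = 3 each; adjusted p = 2.33e-07).

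Intracellular and membrane genes fell as well. Myo16, an unconventional myosin, read 6.46, 6.54 and 6.35 in pCTSH#1, 8.19, 7.95 and 8.25 in pcDNA and 7.91, 8.11 and 7.93 in INS1, a difference of -1.53 ± 0.14 (adjusted p = 1.37e-06). Every pCTSH#1 array was below every array of the other lines, and its second probe set was at background. Eef2k, the kinase that restrains translation elongation through elongation factor eEF2, read 5.59, 5.48 and 5.65 in pCTSH#1, 6.28, 6.58 and 6.59 in pcDNA and 6.94, 6.84 and 7.21 in INS1. It fell by 1.42 (SE 0.11, adjusted p = 1.63e-07), its pcDNA arrays lay between the other lines, and a second probe set also fell (-1.20, adjusted p = 0.000196). Rab34, a small GTPase of vesicle traffic, fell by 1.28 (SE 0.12), Pmp22, a peripheral myelin membrane protein, by 1.28 (SE 0.14), and St6gal1, a sialyltransferase, by 1.17 (SE 0.10). Antxr2, an anthrax toxin receptor that binds matrix proteins, fell by 1.16 (SE 0.11). The second probe set of Rab34 was above background on every array and differed by only -0.15 (adjusted p = 0.733), so its probe sets disagree. Of 140 called genes with more than 1 probe set, 39 had another one called in the same direction, and none of the other 197 probe sets was called in the opposite direction.

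The gene lists chosen for a beta-cell line under cytokine study held 1009 measured genes, of which 60 (5.95%) were called, 29 higher (2.87%) and 31 lower (3.07%). Over all genes these shares were 2.28% and 1.16%, but the lists were chosen with earlier results of these data known. Of these calls 40 held without each of the 6 arrays in turn, 17 higher and 23 lower. No member was called in 9 lists, and pcDNA minus INS1 gave no call in any list.

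Of 24 measured islet hormone and neuropeptide genes 2 rose and 3 fell (20.8% called, against 3.45% of all genes), and the median of the list was 0.01. Glucagon (Gcg), the alpha-cell hormone, read 9.04, 8.73 and 8.86 in pCTSH#1, 8.79, 8.40 and 8.60 in pcDNA and 7.74, 7.63 and 7.43 in INS1. It was 2.43-fold higher in pCTSH#1 (1.28 ± 0.17, adjusted p = 0.00015), and the pcDNA arrays overlapped those of pCTSH#1 but not those of INS1. The pcDNA minus INS1 difference of Gcg was 1.00 (adjusted p = 0.0941) and the pCTSH#1 minus pcDNA difference 0.28 (adjusted p = 0.680). Npy, neuropeptide Y, read 12.27, 12.26 and 12.21 in pCTSH#1, 11.07, 11.15 and 11.28 in pcDNA and 11.34, 11.43 and 11.49 in INS1. It rose by 0.83 ± 0.09 (adjusted p = 1.61e-05), and the pcDNA arrays lay below those of INS1. Besides Tac1, the precursors of the peptides CART (Cartpt, -1.13 ± 0.18, adjusted p = 0.000616) and gastrin (Gast, -0.77 ± 0.13, adjusted p = 0.00133) fell.

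The lists of beta-cell identity, insulin synthesis and secretion held at most 1 called gene each. None of 16 beta-cell transcription factors was called (differences from -0.34 to 0.33). Of 17 genes of insulin synthesis and processing only Pam, the enzyme that amidates peptide hormones, was lower (-0.33 ± 0.07), a call lost without pCTSH#1 replicate 3 (adjusted p = 0.0991), INS1 replicate 1 (0.0711) or INS1 replicate 2 (0.0814). In the secretion machinery 1 of 26 genes rose: Stx1a, syntaxin 1A of the granule fusion complex, which read 7.21, 7.30 and 7.21 in pCTSH#1, 6.44, 6.76 and 6.39 in pcDNA and 6.31, 6.44 and 6.61 in INS1 (0.79 ± 0.11, adjusted p = 0.000198). Its second probe set rose alike (0.85, adjusted p = 0.00236). Among 19 glucose-sensing and receptor genes 2 rose and 1 fell (15.8% called, against 3.45% of all genes). Ghr, the growth hormone receptor, fell by 0.82 (SE 0.09, adjusted p = 1.78e-05), with -0.51 at its second probe set (adjusted p = 0.237). Glp1r, the receptor of the incretin GLP-1, rose by 0.55 ± 0.12 (adjusted p = 0.0097, and 0.0517 without pCTSH#1 replicate 3). Chrm3, the M3 muscarinic acetylcholine receptor, was higher by 0.62 ± 0.15 (adjusted p = 0.025). Leaving out any of 4 of the 6 arrays ended the call of Chrm3 (adjusted p from 0.0651 to 0.153), as did the model of only the 6 arrays (0.16), and its second probe set differed by 0.06. Of 26 ion channel genes none rose and 2 fell (7.69% called), the potassium channel Kcnc1 (-0.86 ± 0.14) and the T-type calcium channel Cacna1h (-0.82 ± 0.16). Both channel calls were lost in the model of only the 6 arrays (adjusted p = 0.0615 and 0.0865).

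Before any cytokine was added, class I antigen presentation was the immune list with the most called genes. None of 32 cytokine receptor and signalling genes, 30 NF-kB targets, 31 ER stress genes or 25 candidate genes for type 1 diabetes was called. In the class I antigen presentation list 3 of 17 genes fell (17.6%, against 1.16% of all genes) and the list median was -0.12. In the class II list 1 of 7 was called lower, Cd74, which was at background in both groups. Among 39 interferon targets 1 was called (2.56%, against 3.45% of all genes). It was the ubiquitin-conjugating enzyme Ube2l6, which rose (0.31 ± 0.08, adjusted p = 0.0282, and 0.266 in the model of only the 6 arrays). Tap1, a subunit of the peptide transporter of the endoplasmic reticulum, differed by -0.57 ± 0.10 (adjusted p = 0.00188) and Psmb8, an immunoproteasome subunit, -0.55 ± 0.08 (adjusted p = 0.000276). Psmb8 read 7.16, 7.34 and 7.32 in pCTSH#1, 7.91, 8.02 and 8.07 in pcDNA and 7.70, 7.80 and 7.96 in INS1. RT1-CE5, a class I heavy chain (-0.60 ± 0.15), lost its call without pCTSH#1 replicate 2 or 3 or INS1 replicate 2 or 3 (adjusted p from 0.108 to 0.165), and its other probe sets were not called. In the model of only the 6 arrays the other calls were lost as well (adjusted p = 0.071 for Tap1 and 0.0523 for Psmb8). In the death receptor and apoptosis list 1 of 36 genes was called (2.78%, against 3.45% of all genes), the death receptor Fas, which fell. It read 4.65, 4.70 and 4.89 in pCTSH#1, 5.55, 5.33 and 5.98 in pcDNA and 5.66, 5.64 and 5.49 in INS1 (-0.85 ± 0.12, adjusted p = 0.000263). Its other probe sets were at background in both groups. Of 19 p53 targets only Perp, a desmosome protein linked to apoptosis, was called (5.26%), and it rose (0.52 ± 0.07).

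Among 38 lysosomal genes, none rose and 2 fell (5.26% called, against 3.45% of all genes). Lgmn, the asparaginyl endopeptidase legumain, which is a lysosomal protease like the transfected one, read 8.54, 8.79 and 8.67 in pCTSH#1, 9.09, 9.24 and 9.25 in pcDNA and 9.35, 9.45 and 9.33 in INS1. It fell by 0.71 (SE 0.09, adjusted p = 9.65e-05), and the arrays of the 3 lines did not overlap, with pcDNA in between. Its second probe set was at background. The call of Lipa, lysosomal acid lipase (-0.36 ± 0.09), held only without INS1 replicate 3; the other leave-outs gave adjusted p from 0.0779 to 0.246.

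Signalling genes moved in both directions. In the G protein list 4 of 40 genes rose and 1 fell (12.5% called, against 3.45% of all genes). The gene that fell was Gng2, a gamma subunit (-0.69 ± 0.11, adjusted p = 0.000589), with -0.51 at its second probe set (adjusted p = 0.144). Of the 4 that rose only the call of Gna15 held without each array in turn. Of 55 growth factor and receptor kinase genes, Igf2, insulin-like growth factor 2, rose by 0.47 ± 0.07 at a high level, 12.72, 12.70 and 12.70 in pCTSH#1, 12.22, 12.30 and 12.22 in pcDNA and 12.24, 12.19 and 12.27 in INS1. Igfbp5, a binding protein of these factors, rose by 0.72 ± 0.13, but its other probe sets were not called (0.41, 0.05, 0.01 and -0.16). Fgf13, an intracellular modulator of sodium channels, fell by 0.96 (SE 0.17, adjusted p = 0.00168). In this list 2 genes rose and 3 fell in all (9.09% called). In the cell cycle list of 47 genes Ccnd1, cyclin D1, alone was called (-0.85 ± 0.14, adjusted p = 0.00131, and 0.101 in the model of only the 6 arrays). Its other probe sets differed by -0.65 and -0.33 and were not called (adjusted p = 0.0703 and 0.220). In the developmental signalling list of 51 genes 1 rose and 1 fell (3.92% called). The ligand Bmp2 was higher by 0.72 ± 0.11 (adjusted p = 0.000589, and 0.0693 in the model of only the 6 arrays), with 0.39 at its second probe set (adjusted p = 0.306). Id2, an inhibitor of basic helix-loop-helix factors and a target of BMP signals, fell by 0.86 (SE 0.17, adjusted p = 0.00612).

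Markers of other cell types were called to unequal degrees, against 3.45% of all genes. The blood-cell list had 1 of 24 genes called (Gna15), the muscle list 1 of 31 (Ttn) and the neuronal list 1 of 31 (Islr2), with list medians of 0.00, 0.01 and -0.04. pCTSH#1 was at background for 14 of the 24 blood-cell genes and 23 of the 31 muscle genes, INS1 for 13 and 22. In the duct and acinar list 2 of 28 genes rose and 3 fell (17.9% called). E-cadherin (Cdh1), an adhesion protein, was higher by 0.47 ± 0.09 (adjusted p = 0.00342), with 0.00 at its second probe set, and Epcam, another adhesion protein of epithelia, by 0.29 ± 0.07 (adjusted p = 0.0321). The keratin Krt18 was lower (-0.50 ± 0.11, adjusted p = 0.0135), as were the trefoil peptides Tff1 (-0.71 ± 0.18, adjusted p = 0.0432) and Tff3. In the alpha, delta and PP cell list 2 of 11 were called (18.2%), Gcg higher and Gc, the vitamin D binding protein, lower (-0.36 ± 0.07, adjusted p = 0.00401).

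In the mesenchymal and matrix list 1 of 43 genes rose and 3 fell (9.3% called, against 3.45% of all genes). Cav1, the caveolar coat protein caveolin 1, was at background on all 3 INS1 arrays and at least 1.47-fold higher in pCTSH#1 (adjusted p = 0.0193), while its other probe sets were not called (0.04 and -0.06). Serpine2, fibronectin (Fn1, -0.56 ± 0.11, adjusted p = 0.00425) and the repressor of epithelial genes Zeb1 (-0.44 ± 0.09, adjusted p = 0.011) fell. Called genes of the duct and acinar list and of the mesenchymal list went in both directions. In the cell adhesion list 2 of 42 genes rose, Cdh1 and Epcam, and 1 fell (7.14% called). The gene that fell was Alcam, by 0.71 (SE 0.10, adjusted p = 0.000174). In the model of only the 6 arrays the calls of Cdh1, Epcam, Krt18, Tff1, Gc, Cav1 and Fn1 were lost (adjusted p from 0.0877 for Fn1 to 0.241 for Tff1). Those of Epcam, Krt18, Tff1 and Cav1 were also lost without single arrays (adjusted p from 0.0512 to 0.204). None of 18 glycolysis, 32 mitochondrial and 18 cholesterol synthesis genes was called.

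**Figure D3:**
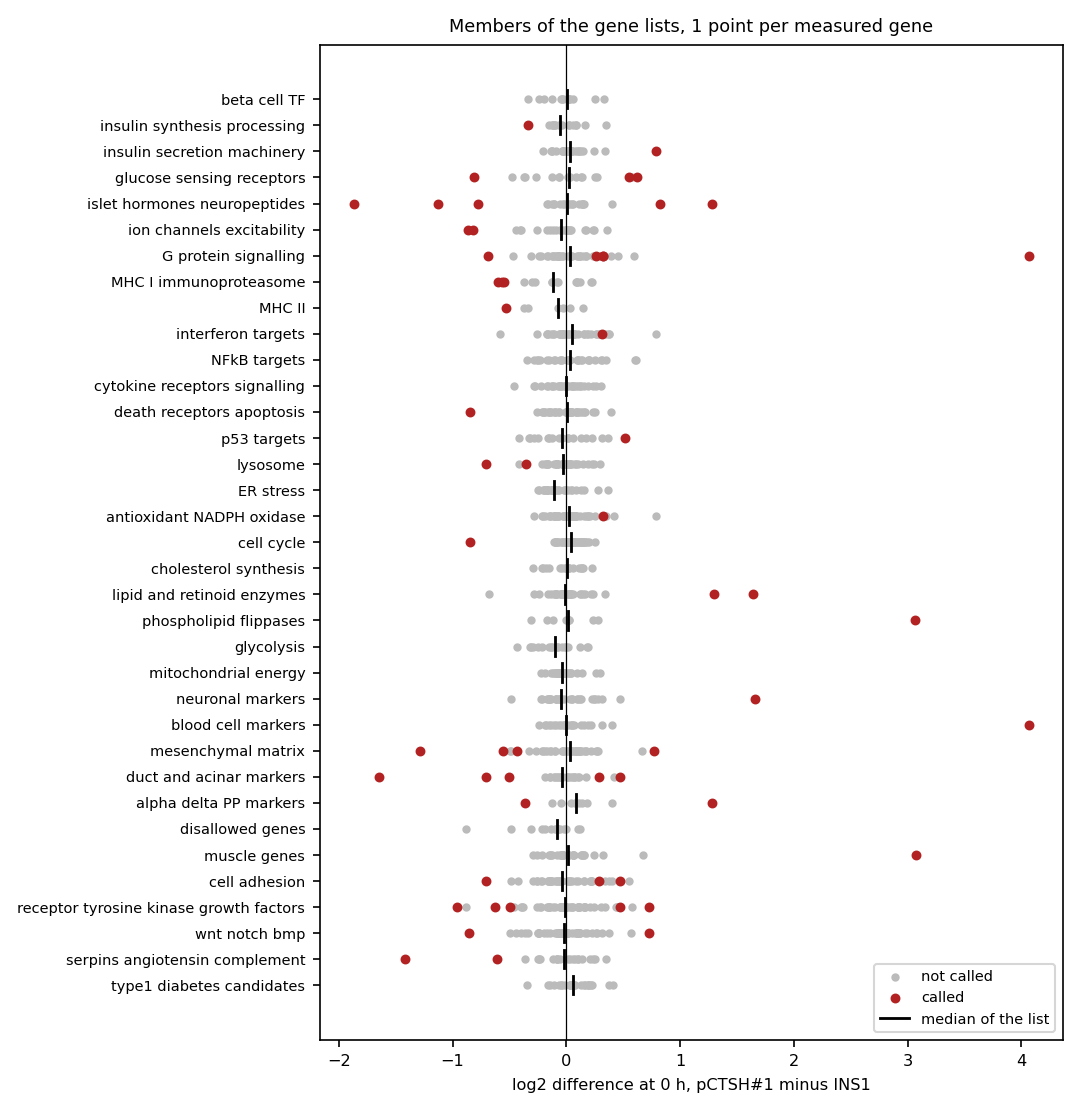
Log2 difference at 0 h, pCTSH#1 minus INS1 (horizontal), of each measured gene in the gene lists reported (rows). Grey points are genes not called, red points genes called at an adjusted p below 0.05 and black ticks list medians. Most lists centre near 0 with single genes far out, such as Gna15, Atp10a and Ttn at right and Tac1 and Tff3 at left.

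Part of the genes called higher lay close together on the chromosomes, and the larger part did not. Of 13385 genes placed in order by the RefSeq annotation of GRCr8, 274 (2.05%) lay in 6 runs in which the median difference of 15 consecutive measured genes was at least 0.3. These runs held 118 of the 306 placed genes called higher (38.6%) and 1 gene called lower, Camk1g. Since the runs were chosen by these differences, the counts describe them and are no test. Together the genes of the runs had a median difference of 0.33 (1.26-fold) and 233 of 274 were above 0, while 188 (1.43%) of the 13111 genes outside were called higher, 155 (1.18%) lower, and their median was 0.0046. No run of genes called lower met the limit. The number of genes called higher in the runs was 87 to 101 when 1 of the 6 arrays was left out, and 48 in the model of only these arrays.

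On 1 chromosome lay 4 of the runs, with 16 to 57 genes each and medians of 0.26 to 0.32. They span Pdx1 to Atp5mf, Tecpr1 to Pdgfa, Cops6 to Irs3 and Muc3 to Ncf1. Genes in them with different tasks rose together: the receptor Gpr146 (0.97 ± 0.11, adjusted p = 2.75e-05), the non-coding Abhd11-as1 (0.78 ± 0.07, adjusted p = 1.37e-06), the Ras regulator Rasa4 (0.68 ± 0.09), the palmitoyltransferase Zdhhc4 (0.54 ± 0.07), the deubiquitinase Usp12 (0.65 ± 0.10), the transcription factor of 5S RNA genes Gtf3a (0.50 ± 0.07) and Stx1a. Pdx1, the beta-cell factor that borders the first run, did not take part (0.01 ± 0.08, adjusted p = 0.975).

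The other 2 runs lay on another chromosome, from Dusp12 to Casq1 with 32 genes and from Dusp23 to Cr2 with 101 genes, with medians of 0.37 and 0.43. In the first, the glycosyltransferase B4galt3 (0.79 ± 0.08), the heme synthesis enzyme Ppox (0.81 ± 0.11), the Purkinje cell protein homologue Pcp4l1 (0.96 ± 0.12) and the peroxisome biogenesis factor Pex19 (0.54 ± 0.08) rose. In the second, laminin subunit Lamb3 (0.96 ± 0.10, adjusted p = 1.33e-05), the actin regulator Enah (0.71 ± 0.07, adjusted p = 8.95e-06), Aida (0.73 ± 0.07, adjusted p = 1.24e-06), the methyltransferase Smyd2 (0.60 ± 0.07) and the DNA break sensor Parp1 (0.59 ± 0.08) rose. Parp1 averaged 10.9 in pCTSH#1, 10.4 in pcDNA and 10.3 in INS1.

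The same genes were read on arrays whose differences did not enter the choice of the runs, although the brightest probe set of a gene was chosen over all 21 arrays. Between pCTSH#1 and pcDNA with cytokines for 6 h, the median difference over the 274 genes was 0.30 and 232 were above 0. At 16 h the median was 0.26 and 229 were above 0. The genes outside the runs had medians of -0.0048 and -0.011. In pcDNA minus INS1 at 0 h, which shares the INS1 arrays, the median of the runs was 0.05, 190 of 274 genes were above 0 and no gene was called. Outside the runs the median of pcDNA minus INS1 was 0.012 and 7177 of 13111 genes were above 0. DNA copy number was not measured here, and its part in the runs was not tested.

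**Figure D4:**
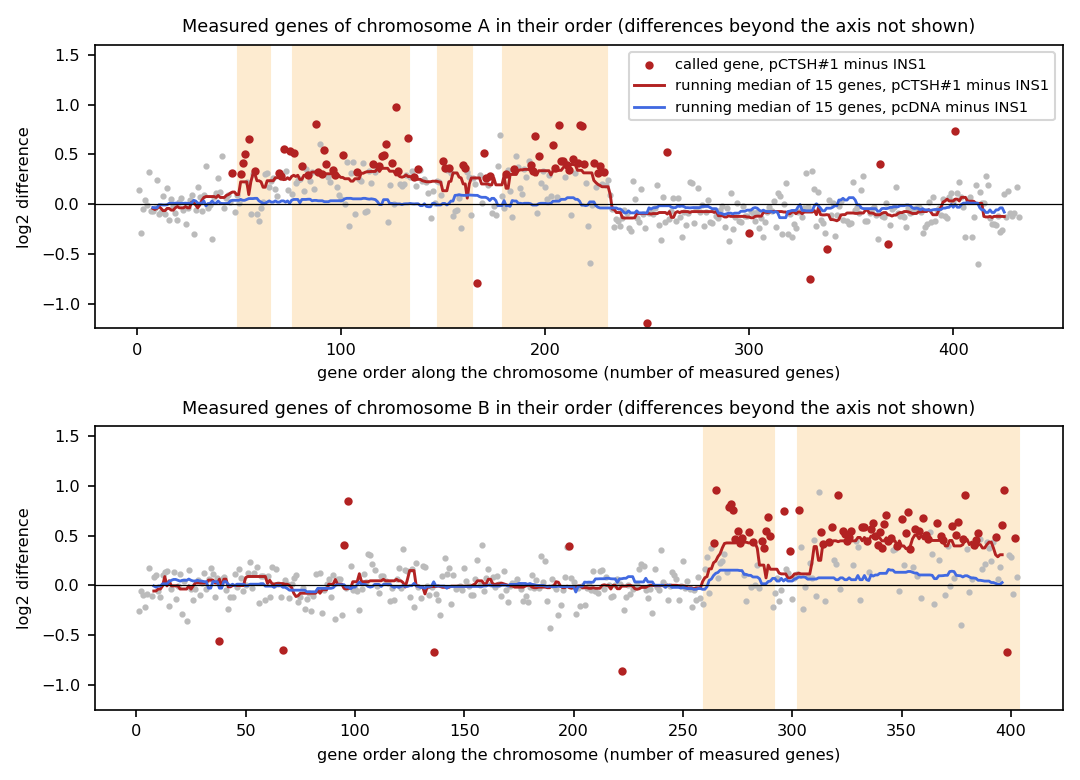
Log2 difference at 0 h (vertical) of the measured genes of the 2 chromosomes that hold the runs, in their order along the chromosome (horizontal, number of measured genes). Points are genes for pCTSH#1 minus INS1 (red if called), the red line is their running median over 15 genes, the blue line that of pcDNA minus INS1, and shaded bands are the 6 runs, with medians of 0.26 to 0.43 for pCTSH#1 and 0.01 to 0.11 for pcDNA.

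The empty vector line differed much less from the untransfected cells. In pcDNA minus INS1, 3 probe sets were called (0.00966%), 1 higher and 2 lower, and no gene with a single symbol (0%). Of 13437 genes 595 had an unadjusted p below 0.05 in limma, a limit that a share of about 0.05 of unchanged genes passes. It was passed by 1807 genes in pCTSH#1 minus INS1 and 1554 in pCTSH#1 minus pcDNA. The pcDNA minus INS1 comparison shares the INS1 arrays with the one described above. Over the 463 genes called in pCTSH#1, the pcDNA mean was nearer to INS1 than to pCTSH#1 for 410. It lay between the 2 other means for 350. These genes were chosen for a gap between pCTSH#1 and INS1, which by itself favours a pcDNA mean in between. No such count over all genes is given beside 410 and 350, so they describe the called genes and are no test. Compared directly, pCTSH#1 and pcDNA differed at 0 h in 582 probe sets (1.87%), 210 genes higher (1.56%) and 134 lower (0.997%). The number of probe sets was 384 without pcDNA replicate 1. Of the 15 genes with the largest increase over INS1, 14 also passed the test of pCTSH#1 minus pcDNA, which shares the pCTSH#1 arrays, and Gcg did not. All 15 genes with the largest decrease passed it. Their sizes are given side by side: Gna15 differed by 4.06 from INS1 and 3.83 from pcDNA, Tesc by -1.94 and -2.04, Eef2k by -1.42 and -0.91, and Mmp17 by -1.20 and -0.72.

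The called probe sets were also read between pCTSH#1 and pcDNA under cytokines. No array of these groups enters the difference at 0 h, but in the model of all 21 arrays they share its estimate of the spread, so the calls are not independent. Of the 531 probe sets higher at 0 h, 493 (92.8%) had a positive difference at 6 h and 280 (52.7%) were called higher, against 1.75% of all probe sets. At 16 h 479 (90.2%) were positive and 252 (47.5%) called higher, against 2.33%. Of the 266 lower at 0 h, 96 (36.1%) were called lower at 6 h and 71 (26.7%) at 16 h, against 1.1% and 1.48%. When the 6 arrays of the comparison at 0 h and the other 15 were fitted separately, with no array in common, 236 probe sets were called higher (0.76%) and 130 lower (0.419%) at 0 h. Of the 236, 145 (61.4%) were called higher at 6 h and 126 (53.4%) at 16 h, against 1.6% and 2.1% of all probe sets. Of the 130, 57 (43.8%) were called lower at 6 h and 38 (29.2%) at 16 h, against 1.11% and 1.27%. Both lines had received IL-1β (150 pg/ml) and IFNγ (5 ng/ml) on these arrays, so the readings carry the cytokine response of each line as well.

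Single genes kept their difference to unequal degrees. Atp10a differed by 2.24 at 6 h and 2.56 at 16 h, Fam151a by 1.46 and 1.58, Rab34 by -1.65 and -1.57, and Ambp by -1.04 and -0.99. The differences at 0 h from pcDNA were 2.75 for Atp10a, 1.58 for Fam151a and -1.47 for Rab34. Gna15 differed by 3.23 at 6 h and by 1.43 at 16 h, when pCTSH#1 averaged 5.39 and pcDNA 3.96. For Gas7 the difference was 1.30 at 6 h and 0.18 at 16 h (adjusted p = 0.567), when pCTSH#1 averaged 3.79 and pcDNA 3.61, both at background level. Tff3 differed by -1.13 at 6 h and -0.24 at 16 h (adjusted p = 0.56), and Mmp17 by -0.29 and -0.05. Of the 15 largest increases, 13 were called higher at 6 h and 12 at 16 h, against 2.43% and 3.32% of all genes. Of the 15 largest decreases, 13 were called lower at 6 h and 10 at 16 h, against 1.56% and 1.96%. Whether the size changed between the times was not tested.

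**Figure D5:**
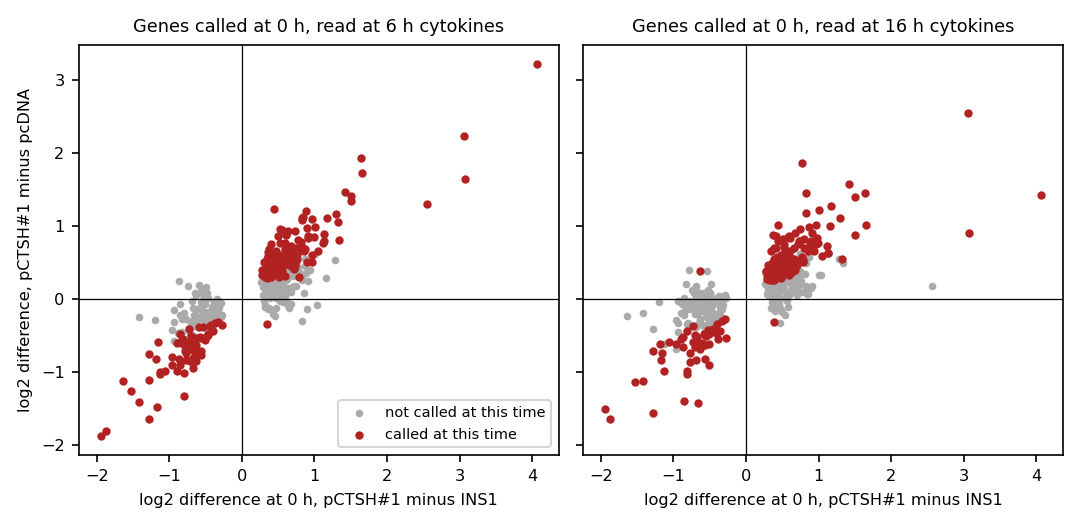
Log2 difference pCTSH#1 minus pcDNA under cytokines (vertical; 6 h at left, 16 h at right) against the log2 difference pCTSH#1 minus INS1 at 0 h (horizontal) for the 463 genes called at 0 h. Red points were called at the later time; of the 307 genes higher at 0 h, 288 lie above 0 at 6 h and 289 at 16 h, and of the 156 lower genes 12 and 25 do.

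In the empty vector line itself, 6 h of cytokines (pcDNA at 6 h minus pcDNA at 0 h, with no array shared) moved many of these probe sets. Among the 531 higher in pCTSH#1, 122 (23%) rose and 199 (37.5%) fell with cytokines, and among the 266 lower ones 51 (19.2%) rose and 121 (45.5%) fell. Over all probe sets 12.1% rose and 18.5% fell. S100a5, for example, averaged 7.90 in pcDNA at 6 h, against 4.86 in pcDNA at 0 h.

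Near the threshold, Cd74, the class II invariant chain (-0.53 ± 0.14, adjusted p = 0.0497), and Lpcat1, a phospholipid acyltransferase (0.41 ± 0.11, adjusted p = 0.0499), lay just inside. Cd74 was at background on 3 of 3 pCTSH#1 arrays and 2 of 3 INS1 arrays. Its call held only without INS1 replicate 1, and the other leave-outs gave adjusted p from 0.0744 to 0.235. Isg20, an interferon-induced exonuclease (0.27 ± 0.07, adjusted p = 0.0503), and Rpusd3 (-0.50 ± 0.13, adjusted p = 0.0507) lay just outside.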

How the data were processed

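RNA of 21 INS-1 samples was measured on Affymetrix rat arrays, 3 arrays in each of 7 groups. The authors deposited log2 intensities per probe set, made with RMA; the submitters' processing notes list RMA, affy and limma, and their versions are not given in the sources used here. They were used as deposited. Of 31042 probe sets tested, the platform annotation gave 1 gene symbol for 19062, several for 573 and did not list 11407. Symbols were updated to the RefSeq gene table of GRCr8 through gene identifiers (18983) or accessions (3), and 76 were kept. A gene was read from its brightest probe set, by mean across the 21 arrays.

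limma 3.58.1 (R 4.3.3; lmFit, eBayes) fitted 1 model of 7 group means to all 21 arrays, with 1 common spread per probe set across groups. Two-sided p-values were adjusted by the Benjamini-Hochberg method over 31042 probe sets, and calls were made below 0.05. Unless SD is written, ± gives the standard error of the fit. A fold is a lower bound where at least 2 of 3 arrays of the lower group were at background, and a mean within 0.5 (log2) of background was taken as near it. No filter on dim values was applied. The number of arrays limits the precision.

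The comparison, its gene lists, the alternative settings and the naming rule were chosen with earlier results of these data known. The rule allowed the 15 most positive and 15 most negative differences among called genes without overlapping arrays, up to 6 called members of each list and of each run of neighbours, 7 set genes and the genes nearest the threshold. Runs are merged windows of 15 genes. The results of 1 gene list are left out of the text and the plot. Camk1g and the border genes of the runs fall outside the rule and were named after their values were seen. On simulated data for pCTSH#1 minus INS1 at 0 h, the model called 44% of 100 probe sets shifted by 0.5 (log2) and 96% of 100 shifted by 1.

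Same-numbered arrays of pCTSH#1 and INS1 had residual correlations of 0.0679, 0.110 and 0.168. Those with unequal numbers had -0.159 to 0.0577, all lower. Because 0.0679 was below the limit of 0.1, the numbers were not taken as pairs here. All 3 were above 0.1 for pCTSH#1 with pcDNA (0.106, 0.124 and 0.239) and for pcDNA with INS1 (0.133, 0.149 and 0.130). The main model had no replicate block for any pair, so pairing by number is not excluded. Alternatives were the replicate block, array weights, median centring, the brighter 50% of the probe sets, cyclic loess, a trended robust eBayes, only the arrays compared, averaged probe sets per gene, windows of 25 genes and leaving out each array.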

Additional observations from a re-analysis of the deposited data

How the results depend on the processing

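The 797 probe sets called for pCTSH#1 minus INS1 became 366 in the model of only the 6 arrays and 742 to 937 under the other alternatives. The model of only the 6 arrays estimates the spread from fewer arrays, and the cause of its lower number was not tested. With the replicate block they were 857. Leaving out 1 array gave 537 to 711. For pcDNA minus INS1 the 3 probe sets became 0 with only the arrays compared. They became 1 in the brighter 50% of the probe sets and 5 with trend and robust settings. The causes were not tested. The replicate block, which equal numbers support for this pair and for pCTSH#1 minus pcDNA, gave 2 and 644 probe sets, and leaving out 1 array gave 2 to 4 for pcDNA minus INS1. For pCTSH#1 minus pcDNA the 582 probe sets became 284 with only the arrays compared, 569 to 739 otherwise and 384 to 465 without 1 array.

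Called list genes went to 69, in place of 60, when a gene's probe sets were averaged. Genes called higher in the runs numbered 115 with windows of 25 genes, 87 to 101 without 1 array and 48 with only the arrays compared; the last 2 were chosen after seeing the data. With the 0 h arrays and the others fitted separately, the shares of called probe sets called again in the same direction were 61.4% and 53.4% for higher ones at 6 and 16 h, and 43.8% and 29.2% for lower ones. For the 117 genes that the naming rule allowed, 1445 of 1628 values kept their direction and their side of the threshold, 175 were no longer called, 8 were newly called and 0 reversed. Differences near array background, as for Ctsh, Nos2 and Cd74, are limited by the signal and not interpretable as sizes.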

Other observations

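Many called probe sets carry no gene name in the annotation used here. Of the 797 called for pCTSH#1 minus INS1, 552 had 1 symbol, 11 several and 234 were not listed. Of the 234, 144 were higher (median 0.59) and 90 lower (median -0.62), and 19 and 15 passed 1 (log2). Probe set 1384501_PM_at averaged 9.29 ± 0.01 in pCTSH#1, 6.35 ± 0.24 in pcDNA and 6.06 ± 0.45 in INS1 (SD, n = 3 each), a difference of 3.24 (limma adjusted p = 2.81e-08). Probe set 1397630_PM_at differed by 2.96, while 1391071_PM_at and 1393397_PM_at differed by -1.82 each.

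The 3 probe sets called for pcDNA minus INS1 were also called for pCTSH#1 minus INS1, which uses the same INS1 arrays; they were named here after their values were seen. Probe set 1372029_PM_at read 3.52, 3.46 and 3.56 in pCTSH#1, below background, 4.81, 4.64 and 4.39 in pcDNA and 6.19, 6.56 and 5.97 in INS1. Its groups did not overlap. It differed by -2.72 for pCTSH#1 minus INS1 (limma adjusted p = 1.43e-09) and by -1.63 for pcDNA minus INS1 (limma adjusted p = 5.29e-05). Probe set 1370253_PM_at read 3.38, 3.39 and 3.44 in pCTSH#1 and 3.64, 3.66 and 3.69 in pcDNA, all below background, and 4.60, 5.81 and 5.14 in INS1. Both match more than 1 gene in the annotation and are not named. Probe set 1388202_PM_at, not listed in the annotation, read 5.67, 5.64 and 5.64 in pCTSH#1, 5.77, 5.76 and 5.95 in pcDNA and 5.40, 4.89 and 5.26 in INS1, lower in INS1 than in both transfected lines.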
